A study of Mus musculus with 48 samples.

Results

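The colons of 7 germ-free mice (GermFree) were compared with those of 5 conventionalised mice (ConvR) by the amount of methylated DNA captured at each region of the genome. The libraries were chosen by their label alone, as every colon library of the series: 12 of 48 libraries, 1 per mouse. The other 36 libraries came from the duodenum, jejunum and ileum of the same 12 mice and serve here as the setting for the colon. Genomic DNA was enriched for its methylated part on a methyl-CpG-binding protein domain (MethylMiner) and sequenced as 100-base single reads. The labels describe all animals as mice of one of these models and name no other treatment, allele or agent. Strain, sex, age and housing are not given in the labels, so it is not known from them whether the models differ in any of these. All 12 colon libraries held counts on the Y chromosome (1.247% to 2.222% of counts), and sex was not tested otherwise. The labels do not say how much of the colon wall was taken, so the DNA comes from a mixture of cell types.

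A methyl-CpG-binding domain holds DNA in which the cytosines of CpG pairs carry a methyl group, and it holds fragments with many such pairs most strongly. In mammals most CpG pairs outside active promoters are methylated, methyl groups are kept through cell division by Dnmt1 and placed by Dnmt3a and Dnmt3b, and methylation of a CpG-rich promoter commonly goes with a silent gene. Natural killer cells weigh inhibitory signals, in mice largely from the Ly49 receptors encoded by the Klra genes, which read MHC class I, against activating signals such as those of NKG2D. The ligands of NKG2D, among them the H60 and Raet1 proteins, are displayed by stressed, infected or transformed cells, and intestinal epithelium is one of the tissues that can carry them. Both the Klra genes and the Raet1 and H60 genes are clusters of similar copies whose number differs between inbred strains.

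Values are CPM, counts put on a common scale by dividing by the effective library size. Both the methylation of a region and its number of copies in the genome set how much DNA is captured, and no library of uncaptured DNA was used here, so these cannot be told apart in any result. The sources used here do not say how reads that match several copies were placed, so values of single genes within families of similar copies are uncertain. All region names carry the GermFree label.

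Colon library totals ran from 1521377 to 2483542 counts, with means of 2065000 ± 257600 (SD, n = 7) for GermFree mice and 1945000 ± 368900 (SD, n = 5) for ConvR mice (exact permutation test, two-sided p = 0.51). The library of ConvR mouse 3 stood apart: it was the 1 colon library of 12 whose mean correlation with the libraries of the other mice was higher for the duodenum (0.840) than for the colon (0.813). It also held the lowest share of counts on the Y chromosome, 1.25% against 1.80 to 1.999% in the other ConvR mice. It was kept under its label, and results are given with and without it.

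The sequences of the differing regions themselves were not read. Promoter windows that overlapped them are given instead, and these need not be the DNA that was captured. Of 32851 windows of 300 bases (250 before a gene start to 50 after it, from RefSeq on GRCm38.p6), 28 windows of 22 genes overlapped a region with more captured DNA in GermFree colon. They held a median of 2.5 CpG pairs, against 6 in the 2488 windows of tested regions that did not differ, and at least 1 pair (motif CG, which reads the same on both strands) was found in 94.6% of all windows. The windows below were chosen for the genes the results turn on and run from CpG-rich to CpG-free. They are written 5′ to 3′ on the strand of the gene, with each CpG pair in capitals.
E030030I06Rik (protein-coding, at the edge of the NKG2D ligand cluster, chr10:22149221-22149520, minus strand): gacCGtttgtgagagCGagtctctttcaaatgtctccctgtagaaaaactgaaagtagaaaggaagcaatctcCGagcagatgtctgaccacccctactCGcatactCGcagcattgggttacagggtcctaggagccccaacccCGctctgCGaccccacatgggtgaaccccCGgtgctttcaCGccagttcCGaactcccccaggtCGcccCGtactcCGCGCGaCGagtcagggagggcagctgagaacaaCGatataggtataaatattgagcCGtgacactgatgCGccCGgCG
Cr2 (complement receptor, chr1:195176670-195176969, minus strand): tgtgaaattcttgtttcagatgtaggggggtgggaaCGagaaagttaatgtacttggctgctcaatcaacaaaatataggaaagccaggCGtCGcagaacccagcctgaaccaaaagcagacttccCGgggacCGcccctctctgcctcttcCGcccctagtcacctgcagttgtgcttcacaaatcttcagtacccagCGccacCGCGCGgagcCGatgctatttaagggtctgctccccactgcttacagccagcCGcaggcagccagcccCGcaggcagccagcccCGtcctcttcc
Klra7 (Ly49 receptor, chr6:130231638-130231937, minus strand): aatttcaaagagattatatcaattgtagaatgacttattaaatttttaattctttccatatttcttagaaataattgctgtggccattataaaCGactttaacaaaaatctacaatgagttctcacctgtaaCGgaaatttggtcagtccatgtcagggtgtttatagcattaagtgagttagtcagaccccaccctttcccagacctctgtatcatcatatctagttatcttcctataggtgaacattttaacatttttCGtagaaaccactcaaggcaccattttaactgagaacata
Klra9 (Ly49 receptor, chr6:130193063-130193362, minus strand): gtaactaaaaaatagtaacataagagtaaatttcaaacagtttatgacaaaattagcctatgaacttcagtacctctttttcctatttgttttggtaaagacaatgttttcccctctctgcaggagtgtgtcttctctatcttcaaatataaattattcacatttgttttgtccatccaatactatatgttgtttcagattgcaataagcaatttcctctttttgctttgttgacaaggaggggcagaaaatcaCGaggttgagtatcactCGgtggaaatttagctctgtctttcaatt
Klra4 (Ly49 receptor, chr6:130067222-130067521, minus strand): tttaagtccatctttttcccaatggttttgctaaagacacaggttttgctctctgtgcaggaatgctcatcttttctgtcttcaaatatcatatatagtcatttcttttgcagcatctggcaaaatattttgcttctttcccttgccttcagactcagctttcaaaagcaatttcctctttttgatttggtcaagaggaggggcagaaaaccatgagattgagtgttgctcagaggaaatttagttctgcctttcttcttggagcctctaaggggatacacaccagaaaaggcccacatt
The E030030I06Rik window held 21 CpG pairs, the Cr2 window 14, the printed Klra7 window 3, the Klra9 window 2 and the Klra4 window 0. A further Klra7 window, not printed (130233273 to 130233572), lay in the same higher region as the printed one and held 0. For Klra4 the higher region that covered the window ran from 130059373 to 130070570. Any CpG pairs of that region thus lay outside these 300 bases, in sequence that was not read. The whole window lay in the higher region for the last 4 genes, and 270 of 300 bases did for E030030I06Rik.

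More methylated DNA was captured in GermFree colon at the Ly49 receptor genes, the NKG2D ligand genes, Cr2 with its neighbours, a block around Cacna1b and Ehmt1, and gene families of the X chromosome. Of 74230 regions tested, 381 were higher and 21 lower in GermFree colon (edgeR quasi-likelihood test, Benjamini-Hochberg adjusted p under 0.05), and 5520 had an unadjusted p under 0.05. The background is therefore 0.513% of regions called higher and 0.0283% called lower. The higher regions had a median log2 difference of 1.12 and the lower ones of -0.72, against -0.0042 over all regions tested. The models did not overlap at 146 of the 381 higher regions or at 10 of the 21 lower regions. Over all tested regions such separation was seen at 0.377% (above) and 0.172% (below). The sample titles carry a code whose meaning is not given, and 5 codes hold mice of both models. GermFree was higher in all 5 at 316 of the 381 higher regions (4.04% over all regions) and lower in all 5 at 16 of the 21 lower ones (3.34%). Without ConvR mouse 3, 323 of the higher and 7 of the lower regions kept their call, with medians of 1.04 and -0.70. The ConvR mouse 3 library was the lowest of all 12 at 255 of the higher regions and the highest of all 12 at 10 of the lower regions. DESeq2 called 244 regions, 241 of the higher and 3 of the lower ones, so a gene list with no edgeR call below had none by DESeq2 either.

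Most of the higher regions lay side by side. Runs of at least 5 called regions with gaps of at most 500 kb gave 11 stretches, which held 316 of the 381 higher regions, none of the 21 lower ones, and 400 tested regions in all. These stretches were drawn from the calls, so their values are a description. By chromosome, the X had 169 higher regions of 348 tested (48.6%), against 0.513% over all regions. Chromosome 6 had 76 of 3876 (1.96%) and chromosome 10 had 30 of 4209 (0.713%). Below the share over all regions were chromosome 1 with 24 of 4768 (0.503%), chromosome 17 with 14 of 3420 (0.409%) and chromosome 2 with 17 of 5267 (0.323%).

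**Figure D1:**
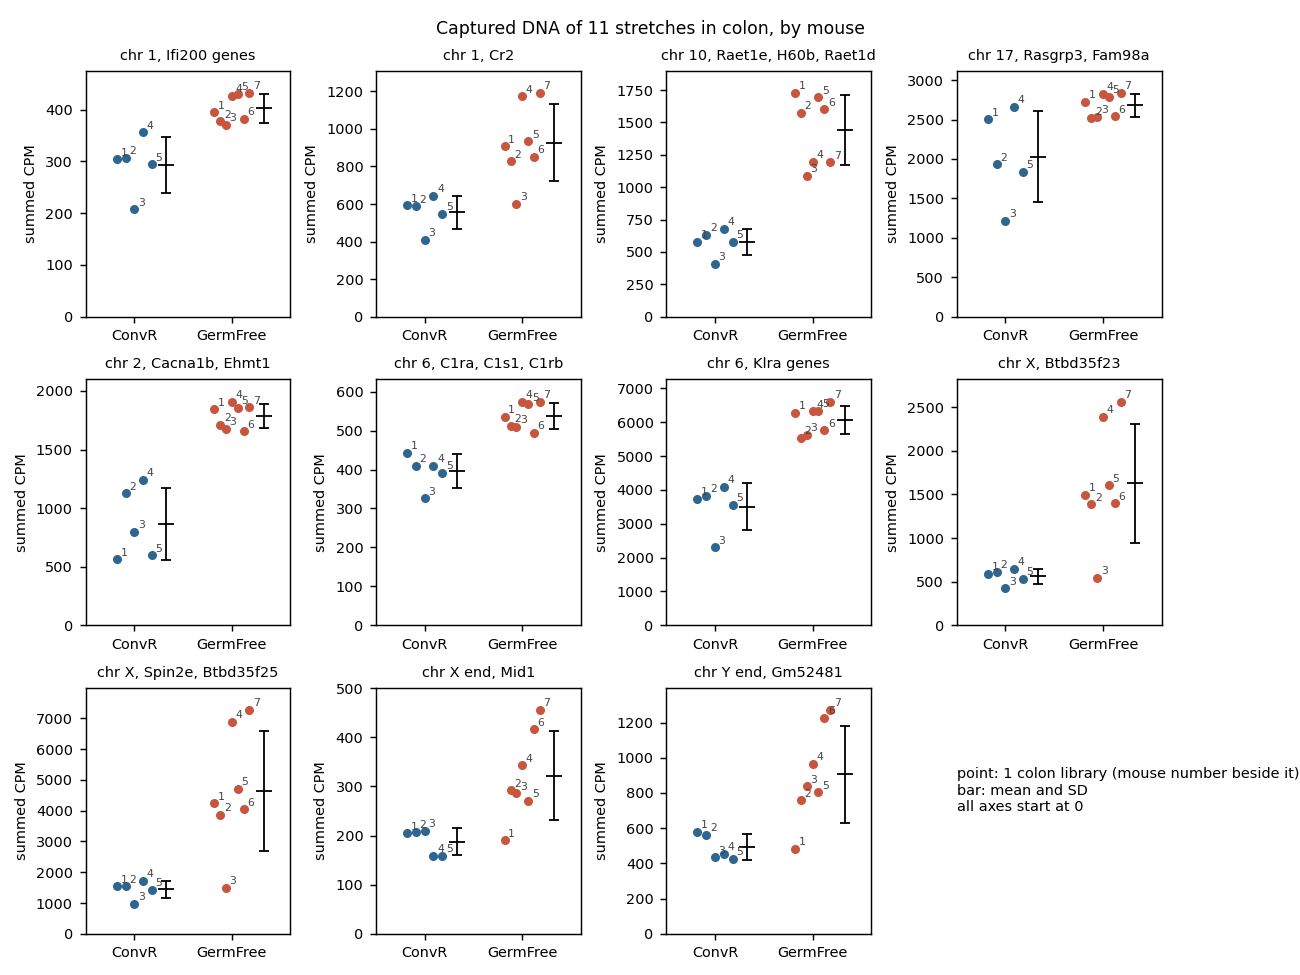
Summed captured DNA (CPM, vertical axis of each panel) of the 11 stretches in colon, 1 numbered point per mouse for 7 GermFree and 5 ConvR mice, with the mean and SD of each model. The models are apart at the Klra stretch of chromosome 6, at chromosome 10 and at chromosome 2, while GermFree mouse 3 sits with the ConvR mice in both long X stretches.

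The longest autosomal stretch, on chromosome 6 (mm10, 129848474 to 131125572), began over the Ly49 cluster, and 65 of its 87 tested regions were higher in GermFree colon. Klra1, the last Ly49 gene with a higher region, ends at 130386874. Beyond it the stretch runs on over predicted genes such as Gm38706, Gm6600 and LOC115490339. Values of the whole stretch are therefore not those of Ly49 genes alone. Summed over the stretch, GermFree mice had 5535 (lowest), 6274 (median) and 6614 CPM (highest), and ConvR mice 1 to 5 had 3738, 3834, 2309, 4100 and 3559. Every GermFree mouse lay above every ConvR mouse, and ConvR mouse 3 was the lowest. The means were 6068 ± 416 (SD, n = 7) and 3508 ± 698 (SD, n = 5), a ratio of 1.73, or 1.59 without ConvR mouse 3.

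Of the list of Ly49 and other natural killer receptor genes, 19 of 40 tested regions were higher and none lower (47.5%, against 0.513% over all regions), with a median log2 difference of 0.64. All 29 gene lists were chosen with earlier results of these data known. The share of a list's regions that were called is therefore a description, here and below, and no test of enrichment. The 19 regions belong to 9 genes, Klra7, Klra4, Klra9, Klra10, Klra8, Klra1, Klra3, Klra17 and the pseudogene Klra13-ps. Klra7, which encodes an inhibitory Ly49 receptor, had the largest difference of the 9 genes, each taken at its called region with the smallest p. At that region (130214425 to 130219298), GermFree mice had 67.2, 71.6 and 76.6 CPM (lowest, median, highest) and ConvR mice 37.3, 30.7, 20.02, 33.8 and 28.9. The GermFree mice lay close together and far above every ConvR mouse. The difference was 1.28 on the log2 scale (SE 0.12, edgeR adjusted p = 1.22e-15), and 1.15 without ConvR mouse 3. The region over the printed Klra7 promoter window is another one (130231045 to 130240946), with a smaller difference of 0.705 (edgeR adjusted p = 6.86e-06). Summed over all regions of a gene, Klra7 differed by 0.91, less than Klra4 (1.15), Klra9 (1.14) and Klra8 (1.11).

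At Klra4, the gene of an activating Ly49 receptor, the region at 130042204 to 130053893 held 106, 135 and 146 CPM in GermFree mice (lowest, median, highest) and 47.7, 65.8, 34.5, 74.9 and 58.9 in ConvR mice 1 to 5. The log2 difference was 1.22 (SE 0.12, edgeR adjusted p = 1.3e-14). The genes of an inhibitory and of an activating receptor were thus both higher. Klra8 encodes Ly49H, the activating receptor that recognises a protein of mouse cytomegalovirus. Its region at 130109734 to 130126450 held 166, 180 and 203 CPM in GermFree mice and 94.0, 103, 57.3, 100.1 and 80.2 in ConvR mice (log2 1.09, SE 0.12, edgeR adjusted p = 6.22e-13). At Klra9, whose promoter window is printed above, the region at 130187367 to 130211212 held 411, 472 and 492 CPM in GermFree mice and 235, 220, 145, 261 and 208 in ConvR mice. That region covers the whole promoter window, and its log2 difference was 1.12 (SE 0.12, edgeR adjusted p = 2.12e-12). No GermFree mouse overlapped a ConvR mouse at Klra4, Klra8 or Klra9.

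The size of the difference varied along the cluster. Klra10 had a log2 difference of 1.11 (edgeR adjusted p = 1.18e-08), Klra1, an inhibitory receptor gene, 0.89 (2.52e-09), Klra13-ps 0.74 (1.16e-06) and Klra3, also inhibitory, 0.64 (6.86e-04). At the edge of the stretch Klra17 had 0.47 (edgeR adjusted p = 0.0138), and its call was lost without ConvR mouse 2 (log2 0.42), GermFree mouse 5 (0.45) or GermFree mouse 7 (0.42). Klra5 (log2 0.27, edgeR adjusted p = 0.814) and Klra14-ps (log2 1.08, edgeR adjusted p = 0.0513) did not pass. For a list gene without a call, here and below, the value is that of its tested region with the smallest p. Klra2, Klra6, Klrc1, Klrc2, Klrc3, Klrd1, Klrk1 and Ncr1 had no tested region. Outside the stretch, the Klrb1 genes of the same chromosome had values of 0.60 (Klrb1, edgeR adjusted p = 0.538), 0.24 (Klrb1a, 0.755), 0.15 (Klrb1b, 0.882) and 0.32 (Klrb1c, 0.747).

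**Figure D2:**
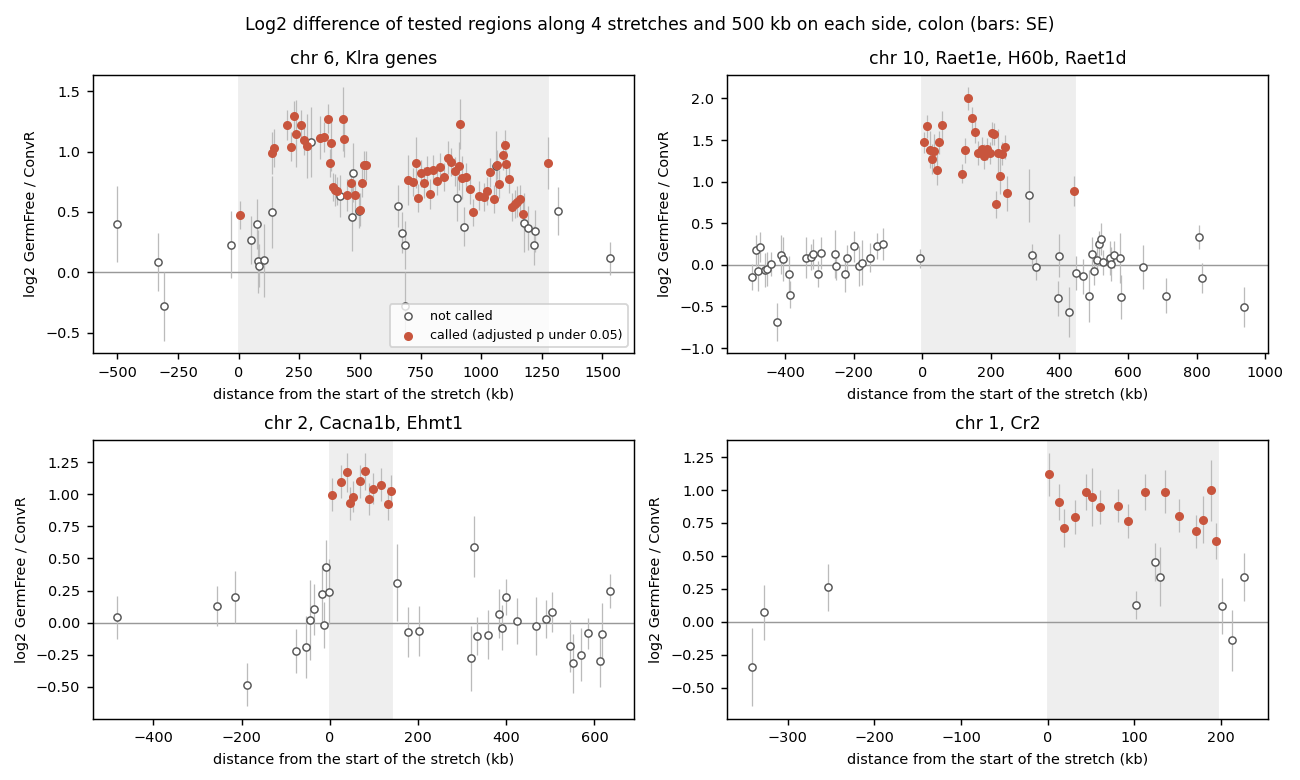
Log2 difference GermFree minus ConvR in colon (vertical axis, bars are SE) of each tested region against its distance in kb from the start of 4 stretches and the 500 kb on either side. Inside the chromosome 10 stretch the median was 1.34, and in the 500 kb before and after it 0.074 and 0.012. By the way the stretches were drawn, these flanks hold no called region.

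Each stretch was drawn to end at its outermost called regions, so the 500 kb on either side hold no called region by construction. Smaller values there than inside are therefore a description and no test. For the stretch that begins over the Ly49 cluster the median log2 difference was 0.75 inside (87 regions). It was 0.16 in the 500 kb before (4 regions) and 0.31 in the 500 kb after (2 regions). At the NKG2D ligand cluster it was 1.34 inside (33 regions), against 0.074 before (28 regions) and 0.012 after (19 regions), and at Cacna1b and Ehmt1 it was 1.03 inside (12 regions), 0.073 before (12 regions) and -0.063 after (21 regions).

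The NKG2D ligands of chromosome 10 (22149251 to 22594287) showed the largest autosomal ratio among the stretches. Summed over the stretch, GermFree mice had 1087, 1576 and 1727 CPM (lowest, median, highest) and ConvR mice 1 to 5 had 580, 632, 408, 679 and 578. The lowest GermFree mouse lay well above the highest ConvR mouse. The means were 1439 ± 269 (SD, n = 7) and 575 ± 102 (SD, n = 5), a ratio of 2.50 (2.33 without ConvR mouse 3), and 27 of 33 tested regions were higher. From the list of NKG2D ligand genes 14 of 20 tested regions were higher and none lower (70.0%), with a median log2 difference of 1.21.

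At H60b, of the H60 family of NKG2D ligands, the region at 22278837 to 22288912 held 133, 190 and 219 CPM in GermFree mice (lowest, median, highest). ConvR mice had 45.0, 54.6, 27.5, 56.1 and 39.6 there. The log2 difference was 2.0 (SE 0.13, edgeR adjusted p = 4.72e-25), and 1.86 without ConvR mouse 3. All 4 tested regions of H60b were higher, as were the 4 of Raet1d and the 6 of Raet1e, members of the RAE-1 family of NKG2D ligands. At Raet1e (22160236 to 22164160) GermFree mice had 35.6, 54.0 and 68.3 CPM and ConvR mice 13.1, 19, 12.6, 20.2 and 18.3 (log2 1.66, SE 0.14, edgeR adjusted p = 1.05e-18). At Raet1d (22355369 to 22361158) they had 44.4, 66.3 and 81.2 CPM against 25.6, 19.99, 17.2, 25.9 and 20.3 (log2 1.57, SE 0.13, edgeR adjusted p = 1.05e-18). The models were separate at these 3 genes. The ligand genes outside the cluster did not pass as single regions: H60c had a log2 difference of 0.59 (edgeR adjusted p = 0.431) and Ulbp1 of 0.50 (edgeR adjusted p = 0.223). The region over the CpG-rich E030030I06Rik window at the cluster's edge was higher by 1.48 (edgeR adjusted p = 2.76e-18).

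The genes that carry the signal of these receptors gave no call. Only 0.542% of all tested regions were called in either direction, so a list of this size may well hold none. The count of 0 is therefore no result about these genes. Of 101 tested regions in the list of natural killer adaptors, signalling molecules and effectors, none passed in either direction (edgeR; 6 had an unadjusted p under 0.05), with a median log2 difference of -0.050. Examples are the adaptor Tyrobp (log2 -0.25, SE 0.27, edgeR adjusted p = 0.90), the pore-forming Prf1 (-0.16, SE 0.31, 0.952), the granzyme Gzma (-0.23, SE 0.15, 0.788) and the transcription factor Eomes (-0.04, SE 0.16, 0.981). Each value is that of the gene's tested region with the smallest p. The other C-type lectins of the natural killer gene complex had 0 of 6 regions past the threshold (edgeR; 1 with an unadjusted p under 0.05).

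Complement genes were higher in a pair of stretches. Cr2 encodes a receptor for complement fragments on B cells and follicular dendritic cells. The stretch that holds it (chromosome 1, 195139473 to 195335828) had 16 of 19 regions higher, of which 5 were those of Cr2. Summed over it, GermFree mice had 600.1, 906 and 1191 CPM (lowest, median, highest) and ConvR mice 593, 587, 409, 642 and 548, and GermFree mouse 3 lay among the ConvR mice. Within Cr2, the region at 195180491 to 195187517 held 32.3, 53.5 and 78.3 CPM in GermFree and 32.5, 28.3, 19.1, 29.5 and 33 in ConvR mice (log2 0.99, SE 0.13, edgeR adjusted p = 1.15e-08), and 0.86 without ConvR mouse 3. The region over the printed Cr2 promoter window (195163667 to 195178371) held 58.6, 119 and 148 CPM against 67.1, 66.8, 39.1, 75.6 and 72.0 (log2 0.80, SE 0.13, edgeR adjusted p = 3.91e-06). At that promoter the DESeq2 adjusted p was 0.27, and 1 GermFree mouse was below 4 ConvR mice.

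The genes of the C1 proteases, which start the classical complement pathway, lie in a smaller stretch on chromosome 6 (124516219 to 124636618, 5 of 10 regions higher). C1rb (124559924 to 124572768) held 92.5, 108 and 133 CPM in GermFree mice and 91.3, 72.2, 55.0, 82.1 and 71.0 in ConvR mice (log2 0.58, SE 0.12, edgeR adjusted p = 3.69e-04). The models did not overlap, but the lowest GermFree mouse and ConvR mouse 1 nearly met. C1ra had a log2 difference of 0.55 and C1s1 of 0.53 (edgeR adjusted p = 0.00166). C1s2 had 0.51 (edgeR adjusted p = 0.0431), a call lost without any of 8 mice, with log2 values of 0.42 (without ConvR mouse 3), 0.45 (GermFree 1), 0.46 (GermFree 4), 0.48 (ConvR 2), 0.51 (GermFree 5 or 7), 0.52 (GermFree 2) and 0.56 (ConvR 5). Over the complement list, 9 of 46 regions were higher (19.6%), all of Cr2 and the C1 genes, and the median log2 difference was 0.033.

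The Ifi200 family, whose proteins sense DNA and respond to interferon, formed a stretch on chromosome 1 (173275132 to 173982947) with 6 of 17 regions higher. In the family list 5 of 10 regions were higher (50%), with a median log2 difference of 0.54. Ifi202b (173971227 to 173982947) held 81.0, 102 and 112 CPM in GermFree mice and 78.8, 77.5, 46.6, 80.6 and 66.0 in ConvR mice, a log2 difference of 0.56 (edgeR adjusted p = 7.28e-04). The lowest GermFree mouse, mouse 3, was 81.0 and the highest ConvR mouse 80.6, so the models nearly met. The 500 kb before the stretch held 4 regions with a median of 0.51, so this edge was less sharp than those above. The remaining interferon pathway genes had 0 of 61 regions higher and 1 lower.

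A stretch on chromosome 2 (24661151 to 24802813) lay over Cacna1b, a subunit of neuronal N-type calcium channels, and Ehmt1, a histone H3 lysine methyltransferase. All 12 of its tested regions were higher. Summed over it, GermFree mice had 1655, 1843 and 1910 CPM (lowest, median, highest), while ConvR mice 1 to 5 had 564, 1128, 799, 1243 and 596. The GermFree mice lay close together and all above the ConvR mice, whose values were spread from 564 to 1243 with mice 1 and 5 lowest. The ratio of the means was 2.07, and 2.03 without ConvR mouse 3. Mice 1 and 5 were also the lowest ConvR mice in the duodenum (438 and 396), jejunum (460 and 440) and ileum (501 and 439), where the other ConvR mice had between 572 and 1037 on a common scale of 48 libraries. At Cacna1b (24755995 to 24761674) GermFree mice had 77.2, 81.6 and 100.0 CPM and ConvR mice 26.3, 49.2, 43.8, 54.7 and 33.5 (log2 1.04, SE 0.12, edgeR adjusted p = 1.69e-11). At Ehmt1 (24796869 to 24802813) they had 79.0, 92.2 and 107 against 29.7, 57.5, 38.2, 63.3 and 37.5 (log2 1.02, SE 0.12, edgeR adjusted p = 5.1e-11). On chromosome 17 (75489342 to 75849650, 11 of 28 regions higher) the models overlapped: 4 of 7 GermFree mice were higher than every ConvR mouse, and Rasgrp3, an activator of Ras, had 0.49 (edgeR adjusted p = 0.0102). The Rasgrp3 call was lost without ConvR mouse 2 (0.45), ConvR mouse 5 (0.47) or GermFree mouse 7 (0.46).

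The X chromosome held the largest differences and the widest spread among GermFree mice. In the stretch from 31130368 to 34560986, which holds many copies of Btbd35f and Spin2, families of multicopy genes, 99 of 109 regions were higher. GermFree mice 1 to 7 had 4247, 3860, 1490, 6888, 4716, 4047 and 7272 CPM, and ConvR mice 1539, 1540, 969, 1731 and 1432. GermFree mouse 3 was within the ConvR range and the other 6 were above it, mice 4 and 7 most. The means were 4646 ± 1959 (SD, n = 7) and 1442 ± 286 (SD, n = 5), a ratio of 3.22, or 2.98 without ConvR mouse 3. In the duodenum, jejunum and ileum GermFree mouse 3 was again the lowest GermFree mouse and mouse 7 the highest.

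Among single regions, the largest difference was at X 34209529 to 34210887, with 12.7, 14.7, 3.83, 25.1, 22.7, 14.6 and 29.4 CPM in GermFree mice 1 to 7 and 2.77, 1.95, 1.4, 2.88 and 1.52 in ConvR mice, a log2 difference of 3.08 (SE 0.30). All GermFree mice were above all ConvR mice there, mouse 3 least. The second X stretch (3082614 to 5392838) had 62 of 69 regions higher and means of 1626 ± 678 (SD, n = 7) and 561 ± 88.7 (SD, n = 5), with GermFree mouse 3 at 546. Its Btbd35f23 region (3082614 to 3086643) held 7.12, 38.2 and 76.6 CPM in GermFree mice and 4.84, 5.85, 2.79, 5.04 and 7.10 in ConvR mice (log2 2.99, SE 0.24, edgeR adjusted p = 9.87e-20). Over the Btbd35f and Spin2 list 11 of 12 tested regions were higher (91.7%), with a median of 1.66. Most family members had no tested region: 10 of 36 had one.

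The ends of the X and Y chromosomes that pair in male meiosis gave smaller stretches. At the X end (169970560 to 170022741) all 6 regions were higher, and GermFree mice had 190, 292, 286, 343, 271, 416 and 456 CPM against 205, 208, 210, 158 and 159 in ConvR mice. GermFree mouse 1 lay within the ConvR range at this end and also at the Y end (90717480 to 90811171, 7 of 10 regions higher). Mid1, a ubiquitin ligase gene that crosses this boundary in mice, had 59.7, 105 and 162 CPM (lowest, median, highest) against 71.9, 75.6, 70.8, 49.7 and 55.8 (log2 0.77, SE 0.13, edgeR adjusted p = 6.47e-06, DESeq2 adjusted p = 0.163). Thus different GermFree mice fell back into the ConvR range at the 2 kinds of X stretch, mouse 3 in the long ones and mouse 1 at the end.

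Outside the stretches 65 regions were higher, 61 of them on autosomes, with a median log2 difference of 0.76. At 31 of them the models were separate, 36 kept their call without ConvR mouse 3, and 23 kept it whichever mouse was left out. The genes named in the rest of this paragraph were chosen after their values were seen, among regions that kept their call whichever mouse was left out. At Ceacam-ps1, a pseudogene of the Ceacam cell adhesion family (chromosome 7, 16649368 to 16661401), GermFree mice had 118, 149 and 188 CPM and ConvR mice 80.2, 80.5, 41.4, 89.3 and 70.5 (log2 1.07, SE 0.12, edgeR adjusted p = 1.28e-11). A pair of neighbours on chromosome 11 also differed. BC018473 (116744773 to 116759373) had 291, 334 and 364 CPM against 199, 190, 162, 225 and 178 (log2 0.80, SE 0.12, edgeR adjusted p = 9.55e-08). St6galnac1, a sialyltransferase that makes the sialyl-Tn sugar of intestinal mucins (116764275 to 116768317), had 60.1, 69.0 and 79.1 against 41.5, 42.4, 45.6, 54.7 and 46.2 (log2 0.62, SE 0.11, edgeR adjusted p = 5.74e-05). The models were apart at all 3. The promoter region of Pxmp4, a peroxisomal membrane protein (chromosome 2, 154602466 to 154606281), had 32.3, 38.0 and 50.1 CPM against 35.3, 20.5, 11.6, 25.2 and 16.2 (log2 0.96, SE 0.14, edgeR adjusted p = 1.44e-07), with ConvR mouse 1 inside the GermFree range. Summed over the 6 regions of Pxmp4 the difference was only 0.42 (SE 0.09, edgeR adjusted p = 0.00633), and that call was lost without ConvR mouse 2 or 5.

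Of the lists of epithelial and sensory cells, Pou2f3, the transcription factor required for tuft cells, was the 1 member with a higher region (chromosome 9, start 43153453). GermFree mice had 23, 29 and 33.5 CPM and ConvR mice 16.6, 21.9, 16.3, 20.2 and 21.8, and no mice overlapped. The log2 difference was 0.57, and the call was lost without ConvR mouse 1 (0.53), ConvR mouse 3 (0.50) or GermFree mouse 4 (0.53). It was the 1 higher region of 42 in the tuft cell list (2.38%, against 0.513% over all regions). None of that list was lower, and its median log2 difference was -0.070, so Pou2f3 does not stand for the list. Of the major urinary protein genes, a multicopy family, 1 of 9 regions was higher, at Mup8, and that call was lost without ConvR mouse 3 (0.71) or ConvR mouse 4 (0.74). The list holds no pseudogenes of the family, and 3 of these, singled out after their values were seen, also had a higher region. Summed over its regions, Mup-ps26 had 53.6, 70.6 and 76.0 CPM in GermFree mice (lowest, median, highest) and 43.8, 45.6, 27.98, 50.05 and 40.04 in ConvR mice (log2 0.73, SE 0.10, edgeR adjusted p = 3.7e-06). Mup-ps4 had 60.2, 76.2 and 82.9 against 48.03, 57.0, 37.4, 50.7 and 53.2 (log2 0.59, SE 0.09, edgeR adjusted p = 1.6e-05). All GermFree mice were above all ConvR mice at both sums, and the calls held whichever mouse was left out, whereas that of the Mup-ps12 region (log2 0.58, edgeR adjusted p = 0.0201) was lost without ConvR mouse 3 (0.50) or GermFree mouse 1 (0.55), 4 (0.53) or 5 (0.56).

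The 21 lower regions were single, autosomal and mostly fragile. Only 3 of them, in Myh2, Tiam1 and Sos2, kept their call when each mouse was left out in turn, and the same 3 passed in DESeq2. Myh2 encodes a fast skeletal muscle myosin heavy chain. Its region (chromosome 11, 67192712 to 67194956) held 6.34, 8.62 and 10.01 CPM in GermFree mice (lowest, median, highest) and 14.5, 17.1, 16.8, 18 and 13.2 in ConvR mice. All GermFree mice were below all ConvR mice, with means of 8.42 ± 1.21 (SD, n = 7) and 15.9 ± 1.98 (SD, n = 5). The log2 difference was -0.91 (SE 0.18, edgeR adjusted p = 5.06e-04), and -0.88 (0.00321) without ConvR mouse 3. In the duodenum, jejunum and ileum of the same mice the Myh2 values were -0.07, -0.23 and -0.07. The test of colon against these sections gave -0.78 (SE 0.20) and did not pass (edgeR adjusted p = 0.999), and Myh2 was not among the regions that passed with the mouse as a block.

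Tiam1, an activator of the small GTPase Rac, was lower at chromosome 16, 89888094 to 89891352. GermFree mice had 12.6, 16.7 and 17.9 CPM and ConvR mice 27.0, 25.4, 22.8, 30.2 and 22.3, so the models were apart. The log2 difference was -0.67 (SE 0.14, edgeR adjusted p = 0.00199), against -0.28, 0.18 and 0.21 in the duodenum, jejunum and ileum. Sos2, an exchange factor that activates Ras, was lower in a narrow region of chromosome 12 (69653729 to 69654663). GermFree mice had 35.8, 41.1 and 49.1 CPM and ConvR mice 79.5, 65.3, 43.8, 83.5 and 68.0, and ConvR mouse 3 lay within the GermFree range. The log2 difference was -0.69 (SE 0.12, edgeR adjusted p = 8.66e-06), and -0.81 without ConvR mouse 3. Sos2 was also called lower in the duodenum (-0.57), jejunum (-0.80) and ileum (-0.50) of these mice, the 1 lower region for which this held.

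Each of the other lower calls was lost when at least 1 mouse was left out, often at a difference close to that with all mice. Prox1, the master regulator of lymphatic vessels, was -0.89 (edgeR adjusted p = 0.0118), and was lost without ConvR mouse 3 (-0.75) or GermFree mouse 7 (-0.75). Cntn5, a neuronal adhesion molecule, was -0.65 (edgeR adjusted p = 0.0119), lost without ConvR mouse 3 (-0.61) or GermFree mouse 4 (-0.61). Ifnar1, the type I interferon receptor subunit, had ConvR mouse 3 as the highest of its group, and without that mouse its difference was -0.48 (edgeR adjusted p = 0.745). Its call was also lost without GermFree mouse 1 (-0.69), 2 (-0.66), 5 (-0.65) or 6 (-0.68). At chromosome 11, start 25099788, ConvR mice had 33.9, 3.41, 19.6, 7.20 and 21.3 CPM and GermFree mice 4.21, 5.71 and 18.3. The ConvR mice fell into high and low values there, and the log2 difference of -1.11 became -0.78 without ConvR mouse 1 and was no longer called, and DESeq2 gave an adjusted p of 1.0.

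**Figure D3:**
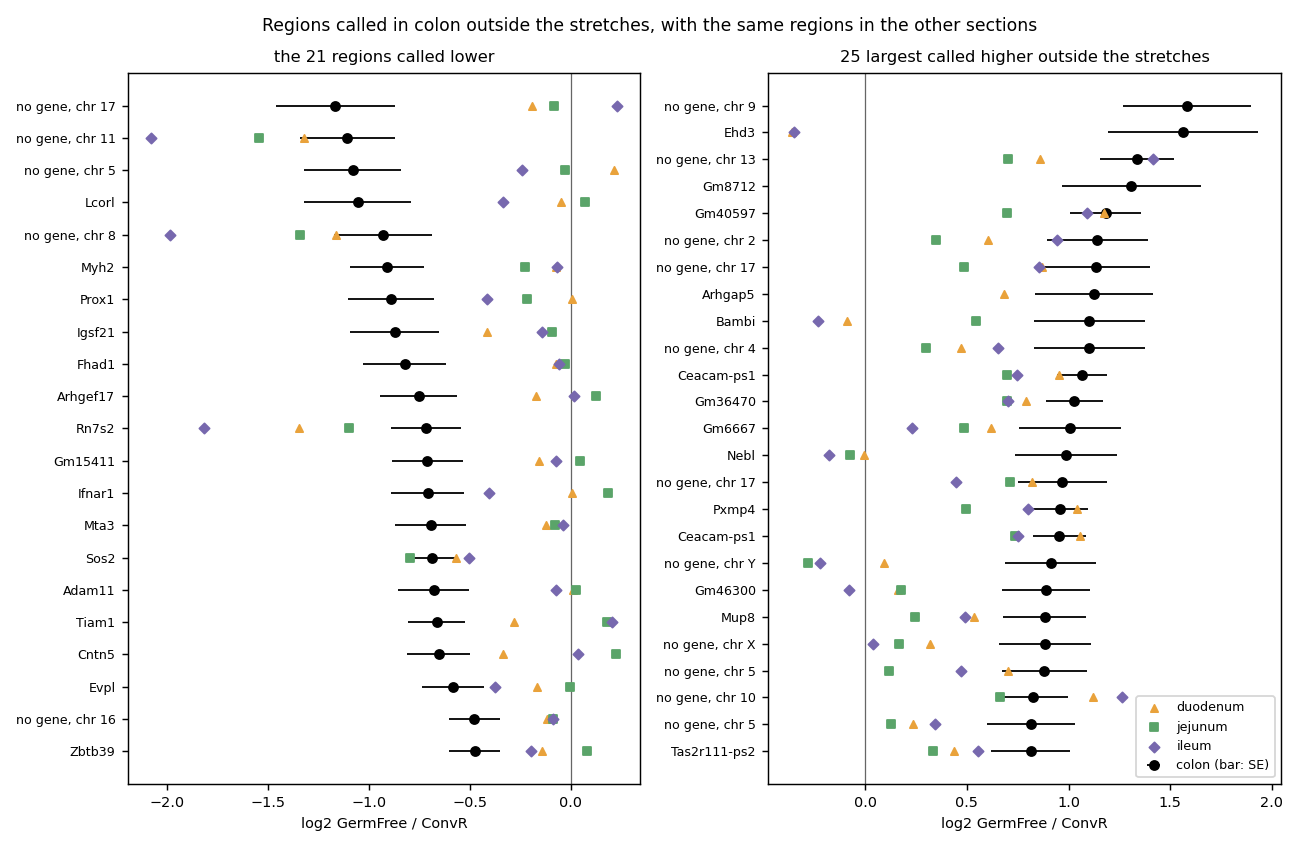
Log2 difference GermFree minus ConvR (horizontal axis) in colon (with SE), duodenum, jejunum and ileum for the 21 lower regions and the 25 higher regions with the largest difference outside the stretches. At Sos2 the 4 sections lie near each other, from -0.50 to -0.80, while at Myh2 the colon is at -0.91 and the others are at -0.07 to -0.23, a difference between sections that did not pass its test.

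Lists of the cell types that the colon holds gave few calls. Calls were also few over all tested regions (0.542%), so a list without a call is not set apart by it. None of 62 regions of absorptive colonocyte genes, 42 of goblet cell and mucus genes, 92 of stem cell and Wnt genes, 12 of enteroendocrine genes, 57 of smooth muscle and interstitial cell genes, 74 of innate lymphoid and T cell genes or 34 of macrophage, mast cell and granulocyte genes passed in either direction. By unadjusted p under 0.05, edgeR gave 3, 4, 6, 0, 3, 9 and 4 of them. Their median log2 differences lay between -0.065 and 0.0088. Of 66 regions of B and plasma cell genes 5 were higher, all at Cr2, and of 78 of enteric neuron and glia genes 10 were higher, all at Cacna1b. Skeletal muscle had 1 lower region of 78 (Myh2), and fibroblast, vessel and fat genes 1 lower of 51 (Prox1). These counts say nothing of how many cells of a type were present, since captured DNA is not expression.

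**Figure D4:**
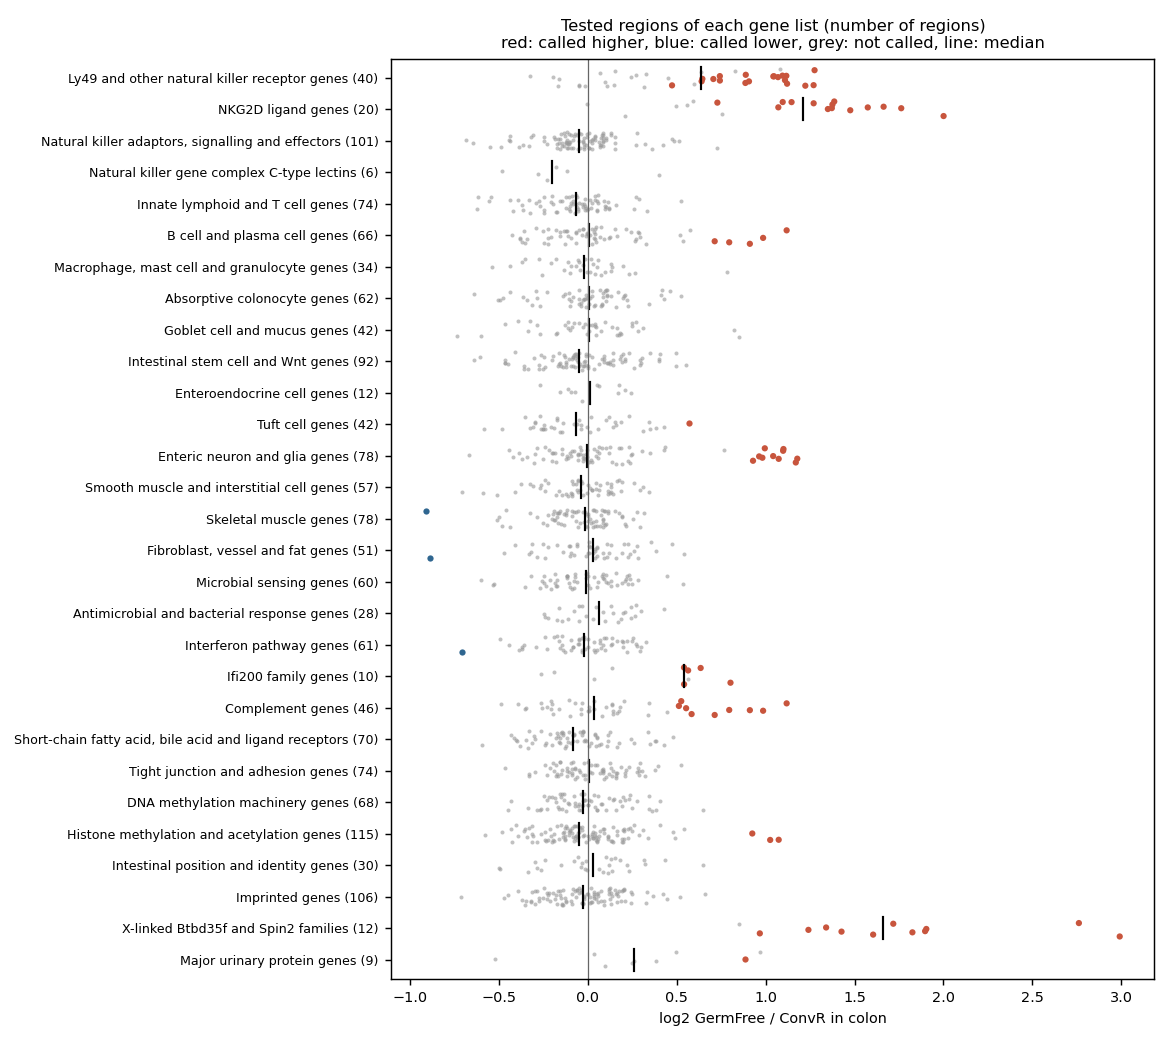
Log2 difference GermFree minus ConvR in colon (horizontal axis) of each tested region of 29 gene lists (rows), red where called higher, blue where called lower, with the list's median as a black bar. As a share of the row, red points are most frequent for the Btbd35f and Spin2 families (91.7%), the NKG2D ligands (70.0%), the Ifi200 family (50%) and the Ly49 receptors (47.5%). The lists were chosen with earlier results of these data known, so these shares are a description.

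Genes that meet microbes or their products also gave no call. With 0.542% of all tested regions called, lists of 28 to 74 regions may hold none whatever their genes. None of 60 regions of microbial sensing genes passed (edgeR; 6 with an unadjusted p under 0.05), among them Tlr6 (log2 -0.54, SE 0.17, edgeR adjusted p = 0.25), Tlr2 (0.45, SE 0.25, 0.724), Nod2 (0.13, SE 0.20, 0.933) and Myd88 (0.08, SE 0.27, 0.978). None of 28 regions of antimicrobial and bacterial response genes passed (0 unadjusted). The receptors for short-chain fatty acids, bile acids and dietary ligands had 0 of 70 regions (6 unadjusted), with Ffar2 at -0.08 (SE 0.18) and Ffar3 at -0.38 (SE 0.23). Each gene named in this paragraph is given by its tested region with the smallest p. Tight junction and adhesion genes had 0 of 74 (1 unadjusted).

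The machinery of methylation was likewise without a call, 0 of 68 regions (edgeR, 2 unadjusted), against 0.542% called over all tested regions. At the tested region with the smallest p of each gene, the values were -0.45 (SE 0.25) for Dnmt1, -0.26 (SE 0.18) for Dnmt3a, 0.28 (SE 0.22) for Dnmt3b and -0.43 (SE 0.24) for Tet1, which oxidises methyl groups. Imprinted genes, which carry parent-specific methylation, had 0 of 106 (4 unadjusted), and genes of intestinal position and identity 0 of 30 (5 unadjusted). Among 115 regions of histone methylation and acetylation genes, 3 were higher, all at Ehmt1. With standard errors of 0.18 to 0.25 at Dnmt1, Dnmt3a, Dnmt3b and Tet1, log2 differences of that size could not be resolved with these 12 mice.

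Counts summed over all regions of a gene hold more reads and smaller errors. A region that overlaps or lies within 5 kb of several genes was counted for each of them. Genes such as Btbd35f28 and Gm14356 therefore had the same values, and the called genes are not all separate differences. Of 27595 genes, 145 were higher (0.525%) and 5 lower (0.0181%) by the edgeR test, and 18 of these had no called region of their own. The clearest was Alad, the second enzyme of haem synthesis, with 2 regions on chromosome 4: GermFree mice had 164, 178 and 197 CPM and ConvR mice 147, 149, 115, 151 and 139. All GermFree mice were above all ConvR mice, by 0.37 on the log2 scale (SE 0.06, edgeR adjusted p = 1.4e-04), and the call held whichever mouse was left out. A region of it also covers the neighbour Pole3, a subunit of DNA polymerase epsilon, whose difference was 0.37 as well (SE 0.07, edgeR adjusted p = 7.28e-04). Ulbp1, an NKG2D ligand whose single regions did not pass, was higher by 0.45 as a sum (edgeR adjusted p = 0.0139), and that call was lost without ConvR mouse 2 (0.40) or ConvR mouse 3 (0.34). Leaving out ConvR mouse 4 raised the count of higher genes to 243. The 5 lower genes became between 2 (without ConvR mouse 2 or GermFree mouse 5) and 11 (without ConvR mouse 4) as single mice were left out.

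The other sections came from the same mice, so they are no independent repeat of the colon. Of the 381 regions higher in colon, 198 were also called higher in all 3 other sections and 63 in none, whereas 17 of the 21 lower regions were called in no other section. The backgrounds there were 0.423%, 0.304% and 0.316% called higher in the duodenum, jejunum and ileum, and 0.0398%, 0.0391% and 0.0491% called lower. The ratio of GermFree to ConvR in the Klra stretch was 1.86, 1.39, 1.68 and 1.74 in the duodenum, jejunum, ileum and colon. For the NKG2D ligand stretch these ratios were 2.65, 2.06, 2.40 and 2.51, and for the longer X stretch 3.18, 2.49, 2.96 and 3.24. At each of the 11 stretches the jejunum had the smallest ratio of the 4 sections, a difference that was not tested.

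The difference in colon was then tested against the mean difference of the other 3 sections. No region of 95876 passed (0.0%, edgeR), 4607 had an unadjusted p under 0.05 (4.81%), and with the mouse as a block 13 passed (0.0136%). The smallest unadjusted p, 1.62e-05, was at Ehd3, an endosomal membrane protein gene, whose colon difference exceeded the others by 1.77 (SE 0.40, edgeR adjusted p = 0.722). At this region (chromosome 17, 73829767 to 73830294) GermFree mice had 3.46, 5.76 and 6.85 CPM in colon and ConvR mice 2.08, 1.46, 2.33, 2.16 and 1.01, and the models did not overlap. The values are low, and the colon call (log2 1.56, edgeR adjusted p = 0.00936) was lost without ConvR mouse 2 (1.5) or 5 (1.41), while without GermFree mouse 1, 2, 4, 5 or 6 the region was not tested because of its low counts. With the block Ehd3 was among the 13 (1.84, SE 0.40, edgeR adjusted p = 0.0432). The other 12 had colon differences of only -0.14 to 0.47 and differences below 0 in the other sections where tested. At Cacng2, a subunit of neuronal receptor and channel complexes and 1 of the 12, ConvR mice 1 and 3 had 48.7 and 42.9 CPM in the duodenum, against a ConvR mean of 5.91 in colon. It was singled out after its values were seen. Vangl1, a planar cell polarity protein, had a colon-minus-others value of 0.91 without the block, and Tiam1 one of -0.69 (edgeR adjusted p = 0.867). Vangl1 in colon was 0.79 (edgeR adjusted p = 0.0176), lost without ConvR mouse 1 (0.72), ConvR mouse 3 (0.68), GermFree mouse 2 (0.74) or GermFree mouse 4 (0.72).

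The classes of region that took up the counts also differed between the models. The X chromosome held 0.966% ± 0.253 (SD, n = 7) of counts in GermFree colon and 0.537% ± 0.0757 (SD, n = 5) in ConvR colon, and 6 of 7 GermFree mice were above all ConvR mice (exact permutation test, two-sided p = 0.00884, 0.0265 adjusted over 7 classes). Within the X, the 3 stretches took 0.60% against 0.202%, and the rest of the chromosome 0.366% ± 0.0150 (SD, n = 7) against 0.334% ± 0.0446 (SD, n = 5). Regions of 5 kb or more held 23.7% ± 0.298 against 22.7% ± 0.856 (exact p = 0.00631, adjusted 0.0265), and gene bodies 50.8% ± 0.330 against 51.7% ± 0.726 (exact p = 0.0114, adjusted 0.0265). Autosomes held 94.9% ± 0.433 against 95.7% ± 0.678 (exact p = 0.024, adjusted 0.042), and the Y chromosome 2.03% ± 0.123 against 1.77% ± 0.303 (exact p = 0.0303, adjusted 0.0424). Gene ends (21.8% against 21.6%) and regions outside genes (27.4% against 26.7%) had exact p adjusted to 0.0543. Without ConvR mouse 3 no class passed: the exact permutation p adjusted over the classes was 0.0583 for the X, for gene bodies and for long regions, 0.102 for autosomes and 0.134 for the Y. Without ConvR mouse 5 it was 0.0566 for the X, gene bodies and long regions, and without GermFree mouse 4, 5 or 7 it was 0.0505 for gene bodies. Autosomes and the Y lost their call without any of ConvR mice 2 and 5 and GermFree mice 1, 4, 5, 6 and 7, with adjusted exact p of 0.0568 to 0.0848. The 792 relabellings allow no p below 0.00126.

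**Figure D5:**
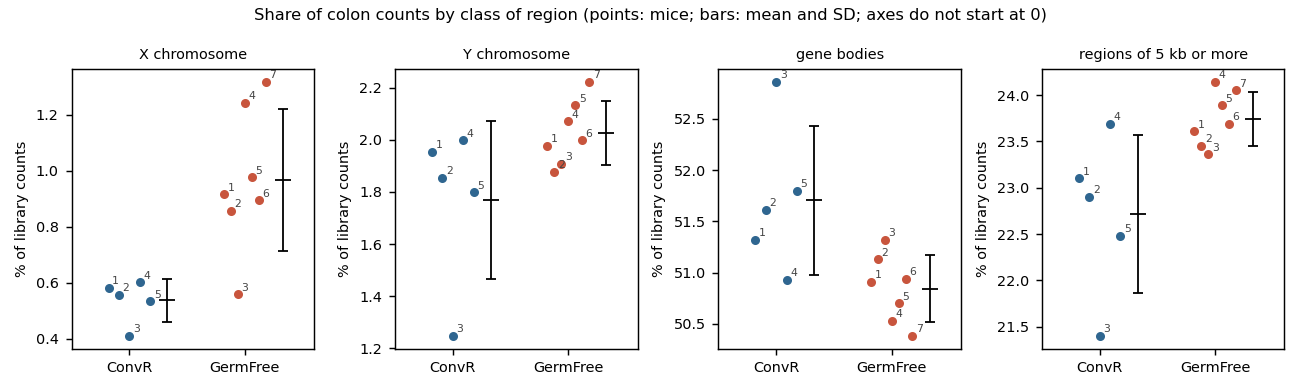
Share of colon counts (percent, vertical axes that do not start at 0) on the X chromosome, on the Y chromosome, in gene bodies and in regions of 5 kb or more, 1 numbered point per mouse with mean and SD for 7 GermFree and 5 ConvR mice. ConvR mouse 3 is the extreme point of its group in all 4 panels, with 0.409% on the X and 1.25% on the Y chromosome.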

How the data were processed

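Methylated DNA was captured from the colon of 12 mice, 1 library per mouse, and groups came from the sample characteristics. The submitters' processing notes name Trim Galore 0.3.7, cutadapt 1.4.2, MACS2, featureCounts and the build mm10. The aligner, the treatment of duplicates and of reads matching several places, and which libraries gave the peaks are unknown (not given in the sources used here). The deposited table holds whole-number read counts for 95882 regions, with no normalisation. A deposited list of peaks gives positions and the authors' score, used only as a filter in an alternative.

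Regions were given to RefSeq genes (GRCm38.p6, which shares coordinates with mm10) that they overlap or lie within 5 kb of. Exons were not used. The test was that of edgeR 4.0.16 under R 4.3.3 (scaling by TMM, the default filter on low counts, a trended dispersion, the quasi-likelihood test, Benjamini-Hochberg adjustment over all regions, 0.05), with limma 3.58.1 and the package data.table, version 1.17.8. The median region held between 11 and 18 counts, and the biological coefficient of variation was 0.0839. Log2 differences are GermFree minus ConvR. Shares were compared by exact permutation over mice. DESeq2 1.42.0 was a second tool, and Python 3.11.15 with NumPy 2.4.6, pandas 2.3.3 and Matplotlib 3.10.9 did the rest. The edgeR steps were tested on simulated data.

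The comparison, the 29 gene lists (662 of 666 genes matched by symbol) and the tests were chosen with earlier results of these data known. The rule for named genes took, among called regions with a mean of 1 CPM or more, the 15 of largest difference in each direction, the called region with the smallest p of each list member, up to 5 genes from the comparison with other sections and up to 10 gene sums in each direction. List members without a called region are given by their tested region with the smallest p. Libraries of different sections pair by mouse, since each mouse gave all 4, so the mouse block is given beside that comparison. Alternatives were other scalings, no filter, DESeq2, all 48 libraries, the mouse number or the title code as a block, autosomes, a score filter, and leaving out each mouse. Leaving out ConvR mice 1 and 3 together was added after the data were seen.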

Additional observations from a re-analysis of the deposited data

Results flagged for a closer look

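Of 132 groups of mice checked, 5 held 1 value far from the others, and chance alone flags about 1 group in 20. ConvR mouse 3 had the lowest Y chromosome share, 1.247%, against 1.80% in the next ConvR mouse. It also had the highest ConvR value at Ifnar1, 24.21 CPM, against 15.1 in the next. ConvR mouse 5 had the highest ConvR value at Fhad1, 16.74 CPM, against 12.1 in the next. GermFree mouse 3 had the lowest GermFree value at Ifi202b, 81.03 CPM, against 99.4 in the next. At chromosome 11, start 25099788, GermFree mouse 4 was the highest of its group with 18.33 CPM, against 8.83 in the next.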

How the results depend on the processing

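The 402 called regions became 244 with DESeq2 and 221 on autosomes alone, the 381 higher ones 241 and 201. The 21 lower ones became 33 with library totals, 37 with loess offsets, 3 with DESeq2, 11 with the title code as a block and 12 without ConvR mice 1 and 3. Leaving out single mice gave 341 to 429 called (328 to 405 higher, 12 to 25 lower, with 13 without ConvR mouse 3 and 12 without GermFree mouse 1), and 126 to 254 gene sums (124 to 243 higher, 2 to 11 lower). The comparison of colon with other sections gave 0 each time and 13 with the mouse as a block. Leave-one-out differences in share, in percentage points, ran from 0.371 to 0.498 (X), 0.125 to 0.314 (Y), -0.976 to -0.525 (autosomes), -1.05 to -0.571 (gene bodies), 0.363 to 0.927 (outside genes), 0.127 to 0.208 (gene ends) and 0.697 to 1.27 (5 kb or more). The share outside genes passed when only regions with at least the median score were kept (1.06 points) and without ConvR mouse 1 (0.826) or ConvR mouse 4 (0.927), and the share at gene ends passed with that score filter (0.311) and among autosomal counts (0.211). The region at chromosome 8, start 121687912, turned from -0.93 to 0.004 without ConvR mice 1 and 3. The cause was not tested for any of these.

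Same-numbered GermFree and ConvR mice deviated little together: correlations between their deviations from the means of their models were -0.008 to 0.111. These values cannot show whether the mice were paired in the design, and most same-numbered mice share a title code. With the number as a replicate block, 374 regions (349 higher, 25 lower) and 181 gene sums (176 and 5) passed. Over 160 named values and 3463 alternatives, 2779 kept direction and call, 683 kept the direction and lost the call (70 with DESeq2, 58 without ConvR mouse 3), and 1 turned. Single regions held a median of 11 to 18 counts per library, and whether depth or the spread between mice limits the calls was not tested.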
